A study of Mus musculus with 21 samples.

Results

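The 10 genes described here belong to the peptide secretory pathway and were followed through all groups of a nascent RNA data set from mouse cortical cultures: 7 precursors of neuropeptides (Nts, Adcyap1, Tac1, Penk, Pdyn, Crh and Cck), 2 granule proteins (Scg2 and Vgf) and 1 prohormone convertase (Pcsk1). They are 10 of the 24984 genes of the count table. The genes were chosen by name with their measured responses to bicuculline in these libraries already known, so the comparisons of bicuculline with water, and of its times with each other, are given as a description: fold changes with their errors and counts of calls, with no p-value and with nothing read from the calls. All 10 passed the filter on low counts, and none overlapped another gene of the table.

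Neuropeptides are cut from larger precursor proteins inside dense-core granules and are released by activity to act on G protein-coupled receptors. Granins such as secretogranin II help to form these granules, and the convertase PC1/3, product of Pcsk1, makes many of the first cuts. Many of these genes are known as targets of activity-regulated transcription in cortical neurons, often through cyclic AMP response elements (CRE) that bind CREB.

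The labels describe primary cultures of cortex from CD1 mice at day 17 in vitro, and give no age or number of the mice. Before stimulation they were held for 30 min in DMSO, which is the solvent alone, or in MM401 at 25 µM, an inhibitor of the contact between the H3K4 methyltransferase MLL1 and WDR5, and then they were given water or 40 µM bicuculline, which blocks GABA-A receptors and so raises network activity. BrU-seq measures RNA made while bromouridine is present, here 2 mM over the last 30 min, so a level stands for recent synthesis and not for stored mRNA. The 7 groups were DMSO with water for 4 h, DMSO with bicuculline for 1 h and for 4 h, MM401 with water for 1 h and for 4 h, and MM401 with bicuculline for 1 h and for 4 h, each of 3 biological replicates of mixed sex. A DMSO group with water for 1 h was not analysed here, so in DMSO both bicuculline times were set against water at 4 h, and at 1 h time and treatment differ together.

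One library, MM401 with water for 4 h replicate 3, held 316741 counts, 0.503% of the median of the other 20, and was left out; the members had 0 to 27 counts in it. The other 20 libraries held 49886348 to 87939384 counts. Of these, DMSO with water for 4 h replicate 1 stood farthest from its group: its counts differed from those of the other 2 by a chi-square per degree of freedom of 45.6 and 78.5, against 6.14 to 29.4 for the other pairs of replicates. Without it 9 of the 10 genes were called with bicuculline in DMSO at each time (7892 and 8167 of all 16958 genes then tested). With it the counts were 9 at 1 h and 10 at 4 h. Without it Scg2, for example, went from 1.27 to 1.11 at 1 h and from 1.20 to 1.04 at 4 h, and Crh from 3.12 to 2.96 and from 1.77 to 1.61. Levels are in CPM, counts relative to a library total scaled by TMM, which assumes that most genes do not change. Without that scaling the median of all genes moved by as much as -0.28 on the log2 scale (bicuculline 4 h against water in DMSO), and changes are given relative to the TMM scale. A gene was called when its adjusted p from edgeR's quasi-likelihood test, over all 16959 genes tested, was under 0.05.

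Summed CPM of markers, not divided by gene length, were highest for neuronal genes in this cortical culture. Group means of 5 neuronal genes summed to 4672 to 6980 CPM and those of 5 astrocyte genes to 782 to 1049. They summed to 148 to 180 for 6 oligodendrocyte lineage genes, 22.0 to 31.5 for 4 microglial genes and 1.94 to 2.40 CPM for 3 endothelial genes. Counts cover whole gene spans, so these sums depend on gene length and do not give shares of cells. In DMSO with water Syt1 held 2423 and Map2 1541 CPM. Tubb3, also neuronal, held 19.3 CPM, and the astrocyte gene Gfap held 94.6 CPM. Of the markers, Dlx1 had 0 counts in all 20 libraries, Cldn5 had 0 to 3 and Tmem119 had 1 to 10. The 6 inhibitory markers summed to 329 to 346 CPM with DMSO and water, 493 to 572 with bicuculline for 1 h and 643 to 684 for 4 h; of the 5 tested, Gad1 and Gad2, which make up most of the sum, were called higher at both times and the other 3 were not called. The 5 cortical excitatory markers summed to 479 to 612, 672 to 739 and 905 to 1002 CPM in the same groups, with 2 called higher and 2 lower at 1 h and 2 higher and 1 lower at 4 h. The 7 markers of striatal projection neurons, which also express Penk, Pdyn and Tac1, summed to 121 to 131, 110 to 115 and 95.8 to 102 CPM in the same groups, with 2 called higher and 4 lower at 1 h and 2 higher and 3 lower at 4 h. In MM401 the calls at 1 h and 4 h were 3 and 4 higher with 0 lower for the inhibitory markers, 3 and 2 higher with 2 and 0 lower for the excitatory ones, and 2 and 4 higher with 3 and 2 lower for the striatal ones, whose sum was 115 to 116 CPM in water and 95.6 to 99.5 CPM with bicuculline for 4 h. The neuronal sum ran from 4523 to 5673 CPM with DMSO and water and from 6693 to 7194 CPM with bicuculline for 4 h (3 called higher, 2 lower). That of the oligodendrocyte lineage ran from 137 to 154 and from 165 to 179 CPM in the same groups (3 higher, 0 lower). These sums moved with bicuculline beside the peptide genes, and their part in the results below was not tested. In bulk RNA, fewer cells of a type and less RNA per cell cannot be told apart.

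Promoter sequence was given for 7 of the 10 genes in RefSeq's table (GRCm38.p6, the build that is also called mm10); Penk, Crh and Vgf had no entry. The bases before the start are shown for the 6 genes that held any of the sites marked below, among them Cck, which had the smallest change. Pdyn, which also rose with bicuculline, held none of these sites in its windows and is not shown. For Adcyap1, which had 2 windows, only the first is shown. Capitals mark a CRE (TGACGTCA), its half-site (TGACG, or CGTCA on the other strand, which every CRE also contains) or an AP-1 site (TGACTCA or TGAGTCA), searched on both strands. The stretches end at the base before the RefSeq start, except that of Scg2, of which only the 30 bases around the CRE are shown, since the gene of the count table begins inside RefSeq's window.
Scg2 (chr1:79440076-79440105, minus strand): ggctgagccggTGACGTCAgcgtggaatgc
Pcsk1 (chr13:75089737-75089856, plus strand): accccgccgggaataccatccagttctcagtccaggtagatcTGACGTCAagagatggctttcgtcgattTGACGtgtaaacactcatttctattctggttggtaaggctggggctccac
Nts (chr10:102490419-102490635, minus strand): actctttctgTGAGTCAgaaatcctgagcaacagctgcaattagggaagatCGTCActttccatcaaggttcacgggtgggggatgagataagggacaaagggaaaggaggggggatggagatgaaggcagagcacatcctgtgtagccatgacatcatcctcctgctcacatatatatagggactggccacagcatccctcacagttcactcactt
Adcyap1 (chr17:93198897-93199016, plus strand): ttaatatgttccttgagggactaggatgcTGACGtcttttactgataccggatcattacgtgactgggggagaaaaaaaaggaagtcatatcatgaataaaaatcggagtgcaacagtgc
Tac1 (chr6:7554854-7555060, plus strand): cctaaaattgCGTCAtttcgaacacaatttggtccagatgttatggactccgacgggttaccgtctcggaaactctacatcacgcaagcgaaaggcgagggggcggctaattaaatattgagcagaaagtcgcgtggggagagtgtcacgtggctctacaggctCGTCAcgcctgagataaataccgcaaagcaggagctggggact
Cck (chr9:121495695-121495814, minus strand): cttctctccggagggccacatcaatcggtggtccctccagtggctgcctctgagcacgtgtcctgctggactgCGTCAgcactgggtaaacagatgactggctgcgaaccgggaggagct
Within the 250 bases before the start, a whole CRE was found in Scg2, where it begins 68 bases before the RefSeq start, and in Pcsk1, where it begins 78 bases before it. A CRE was held by 1.55% of all 32851 windows of that length. The half-site was found in 6 of the 7 genes, all but Pdyn, and in 17.8% of all windows. The AP-1 letters were found only in Nts among the 7, beginning 207 bases before the start, and in 4.46% of all windows. The serum response element CArG was in none of the 7 and in 1.47% of all windows. A match here is a match of letters, and Cck carries the half-site too.

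Per length, the 10 genes covered a wide range in unstimulated cultures (DMSO with water for 4 h; mean ± SD of CPM per kb of gene, n = 3). Scg2, the precursor of secretoneurin, stood first at 25.4 ± 5.21 CPM per kb, above 99.9% of the genes tested. Vgf followed at 3.92 ± 0.36, Penk at 3.41 ± 0.74 and Cck at 3.08 ± 0.19, and the libraries of neighbours in this order overlapped. Adcyap1 came next at 2.58 ± 0.094 CPM per kb and Pcsk1 at 1.45 ± 0.18, each apart from its neighbours. Tac1 stood at 0.371 ± 0.058 CPM per kb and Crh at 0.180 ± 0.074. Nts, at 0.0905 ± 0.0098, and Pdyn, at 0.0853 ± 0.0098 CPM per kb, were lowest and overlapped.

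**Figure D1:**
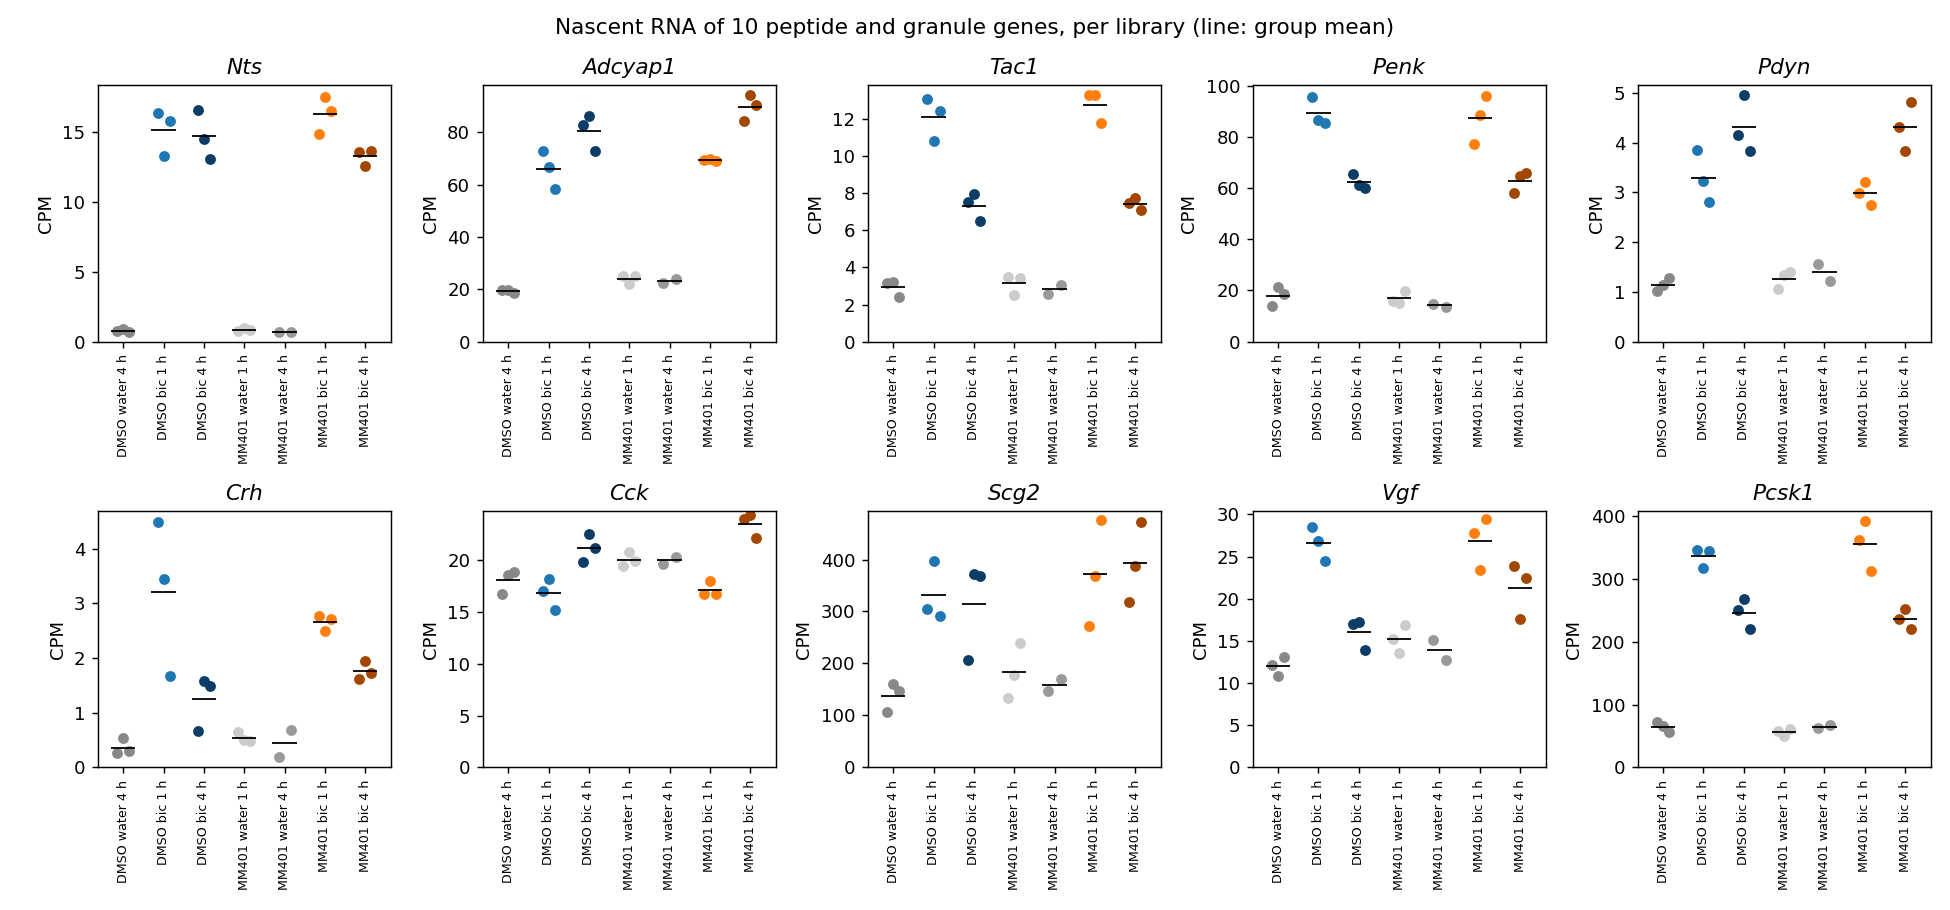
CPM (vertical axis, from 0) of each of the 10 genes in the 20 libraries, by group; each point is 1 library and the line is the group mean. For Nts, Adcyap1, Tac1, Penk, Pdyn and Pcsk1 every bicuculline library lay above every water library, while for Crh, Cck, Scg2 and Vgf the libraries of both kinds overlapped.

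Bicuculline came with more nascent RNA of 9 of the 10 genes at 1 h and of all 10 at 4 h in DMSO, and with plain library totals of 9 at 1 h, where Cck was called lower (-0.29), and of 8 at 4 h, where Vgf (0.14) and Cck (-0.05) were not called. The median log2 fold change of the 10 was 1.91 at 1 h and 1.78 at 4 h, against -0.04 and -0.02 over all genes tested. At 1 h 9 genes were called higher and 0 lower, where 20% of all genes tested were called higher and 24.5% lower; at 4 h 10 were called higher and 0 lower, where the shares were 23.7% and 25.5%. In MM401, with water of the same time as control, 9 genes were called higher and 1 lower (Cck) at 1 h, against 18.1% and 21.8% of all genes, and 10 higher and 0 lower at 4 h, against 23.0% and 21.7%. Without MM401 water 4 h replicate 1 the 10 became 7, as Crh (1.33), Scg2 (1.19) and Cck (0.18) were no longer called; in 5 other settings it became 9, each by the loss of Cck. Since the genes were selected on these responses, nothing is read from the counts. Of all calls, 44.9% and 48.1% were higher in DMSO at 1 h and 4 h with TMM and 21.2% and 18.8% with plain library totals; in MM401 the shares were 45.4% and 51.5% with TMM and 16.3% and 40.3% with plain totals.

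Nts, which encodes the precursor of neurotensin and neuromedin N, had the highest fold changes of the 10. In DMSO with water its 3 libraries held 0.755, 0.880 and 0.717 CPM, with bicuculline for 1 h 16.3, 13.2 and 15.8 CPM, and for 4 h 16.6, 14.5 and 13.0 CPM. The log2 fold change was 4.26 ± 0.13 (SE) at 1 h and 4.22 ± 0.13 at 4 h, which placed Nts 5th and 7th of the 16959 genes by increase. The gap between water and bicuculline was many times the spread within either. In MM401 the water libraries ran from 0.653 to 0.979 CPM and the bicuculline libraries from 12.6 to 17.5 CPM, with changes of 4.26 ± 0.13 at 1 h and 4.28 ± 0.16 at 4 h.

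Adcyap1 encodes PACAP, a peptide that raises cyclic AMP through its receptors. Its libraries held 19.9, 19.7 and 18.6 CPM in DMSO with water, 72.9, 66.7 and 58.3 CPM with bicuculline for 1 h, and 82.8, 86.4 and 72.7 CPM for 4 h. The groups with bicuculline lay far above water and touched each other only at 72.7 to 72.9 CPM. Its log2 fold change was 1.77 ± 0.08 at 1 h and 2.06 ± 0.08 at 4 h in DMSO, and 1.53 ± 0.08 and 1.95 ± 0.09 in MM401.

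Penk, the precursor of the enkephalins, and Pdyn, that of the dynorphins, differed in level and in time course. Penk held 13.8, 21.4 and 18.7 CPM in DMSO with water, 95.7, 86.8 and 85.5 CPM with bicuculline for 1 h, and 65.5, 61.2 and 60.1 CPM for 4 h. All libraries at 1 h lay above all at 4 h, and these above all in water. Penk changed by 2.31 ± 0.13 (log2) at 1 h and 1.78 ± 0.13 at 4 h. Pdyn ran from 1.01 to 1.27 CPM in water, from 2.80 to 3.84 CPM at 1 h and from 3.83 to 4.96 CPM at 4 h, with changes of 1.52 ± 0.16 and 1.91 ± 0.16. For Pdyn the 4 h group was the higher one, and it met the 1 h group at its edge.

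Tac1, which encodes substance P and neurokinin A, ran from 2.40 to 3.24 CPM in DMSO with water, from 10.8 to 13.1 CPM with bicuculline for 1 h and from 6.51 to 7.95 CPM for 4 h. Its 3 groups did not overlap, and the order was that of Penk. Tac1 had log2 fold changes of 2.04 ± 0.13 at 1 h and 1.32 ± 0.13 at 4 h.

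Crh, the corticotropin-releasing hormone gene, was the least precise of the 10. It held 0.258, 0.528 and 0.292 CPM in DMSO with water, 4.48, 3.44 and 1.68 CPM with bicuculline for 1 h, and 0.672, 1.58 and 1.49 CPM for 4 h. Crh changed by 3.12 ± 0.40 (log2) at 1 h and 1.77 ± 0.42 at 4 h in DMSO, and 2.29 ± 0.39 and 1.99 ± 0.48 in MM401. The highest of 3 libraries at 1 h was well over the lowest, and 1 of the 3 at 4 h lay close to the water libraries.

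Cck, the cholecystokinin precursor made by many cortical interneurons and pyramidal cells, stood apart by its small change. It held 16.8, 18.6 and 18.9 CPM in DMSO with water, 15.2 to 18.2 CPM with bicuculline for 1 h, and 19.8, 22.6 and 21.2 CPM for 4 h. Water and 1 h overlapped, while 4 h lay above both. The log2 fold change was -0.10 ± 0.07 at 1 h and 0.23 ± 0.07 at 4 h in DMSO, and -0.23 ± 0.07 and 0.23 ± 0.08 in MM401. With plain library totals the change at 4 h in DMSO turned to -0.05, while the median of all genes went from -0.02 to -0.30. The direction of Cck so rests on the scaling, though its change lay above the median of all genes with both scalings. At 4 h in DMSO it was 0.21 with the shallow library, 0.21 with only the groups compared in the fit, and 0.18 without bicuculline replicate 2 or without water replicate 1; in each of these Cck was no longer among the called genes, which left 9. At 1 h it was called lower in DMSO with plain totals (-0.29). The lower call at 1 h in MM401 was lost with the shallow library (-0.22) and without bicuculline replicate 1 (-0.21) or 3 (-0.20) or water replicate 2 (-0.19). The call at 4 h in MM401 was lost with plain totals (0.16), with the shallow library (0.26), without bicuculline replicate 1 (0.22) or 2 (0.20) and without either water replicate (0.18 and 0.23).

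Scg2 had the highest level and the widest spread between replicates of the granule genes. It held 106, 160 and 147 CPM in DMSO with water, 306, 397 and 291 CPM with bicuculline for 1 h, and 206, 372 and 369 CPM for 4 h. Bicuculline lay above water within DMSO, but over all groups the lowest bicuculline library (206 CPM) was below the highest water library (238 CPM, in MM401 for 1 h). The log2 fold change was 1.27 ± 0.29 at 1 h and 1.20 ± 0.29 at 4 h in DMSO, and 1.02 ± 0.28 and 1.31 ± 0.33 in MM401. Replicate 1 lay below its group mean in all 6 groups with 3 libraries, by 0.36 on the log2 scale on average.

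**Figure D2:**
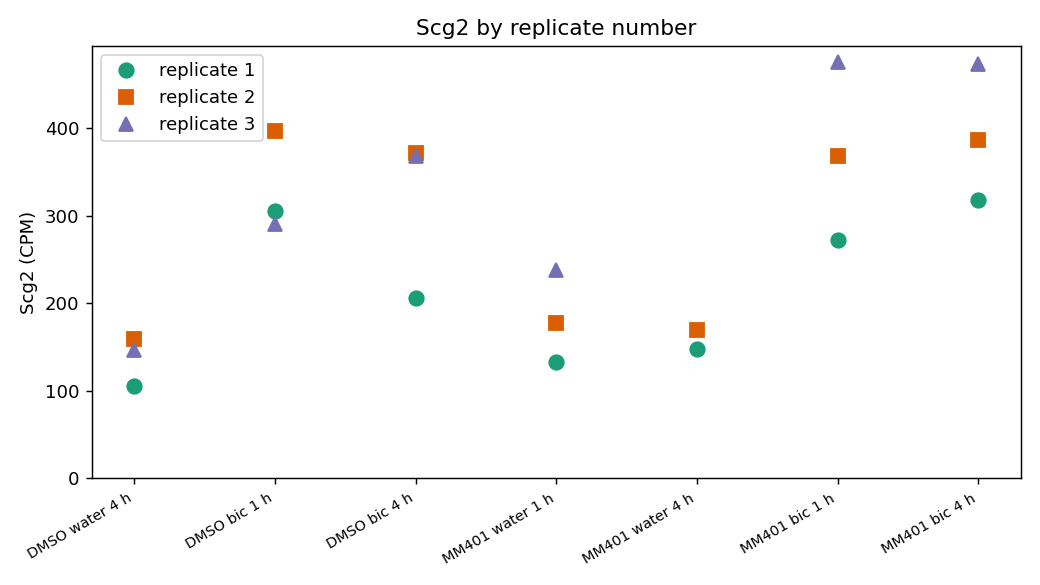
Scg2 CPM (vertical axis, from 0) in each library by group, with the replicate number as symbol. Replicate 1 is below its group mean in all 6 groups of 3 libraries.

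Vgf, a neurotrophin-induced granule protein and peptide precursor, ran from 10.8 to 13.0 CPM in DMSO with water, from 24.4 to 28.5 CPM with bicuculline for 1 h and from 14.0 to 17.2 CPM for 4 h. The 3 groups did not overlap, and at 4 h the level was close to that in water. The log2 fold change was 1.15 ± 0.12 at 1 h and 0.42 ± 0.12 at 4 h in DMSO; the latter was 0.14 with plain library totals and 0.33 without DMSO water replicate 2, and was called in neither. In MM401 it was 0.82 ± 0.12 at 1 h and 0.62 ± 0.14 at 4 h.

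Pcsk1, the convertase gene, held 72.5, 66.2 and 56.5 CPM in DMSO with water, 346, 318 and 345 CPM with bicuculline for 1 h, and 251, 268 and 220 CPM for 4 h. The 3 groups were separate, with 1 h above 4 h. The log2 fold change was 2.37 ± 0.10 at 1 h and 1.92 ± 0.10 at 4 h in DMSO, and 2.66 ± 0.10 and 1.86 ± 0.12 in MM401. In MM401 all bicuculline libraries (220 to 392 CPM) were again above all water libraries (50.2 to 67.3 CPM).

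**Figure D3:**
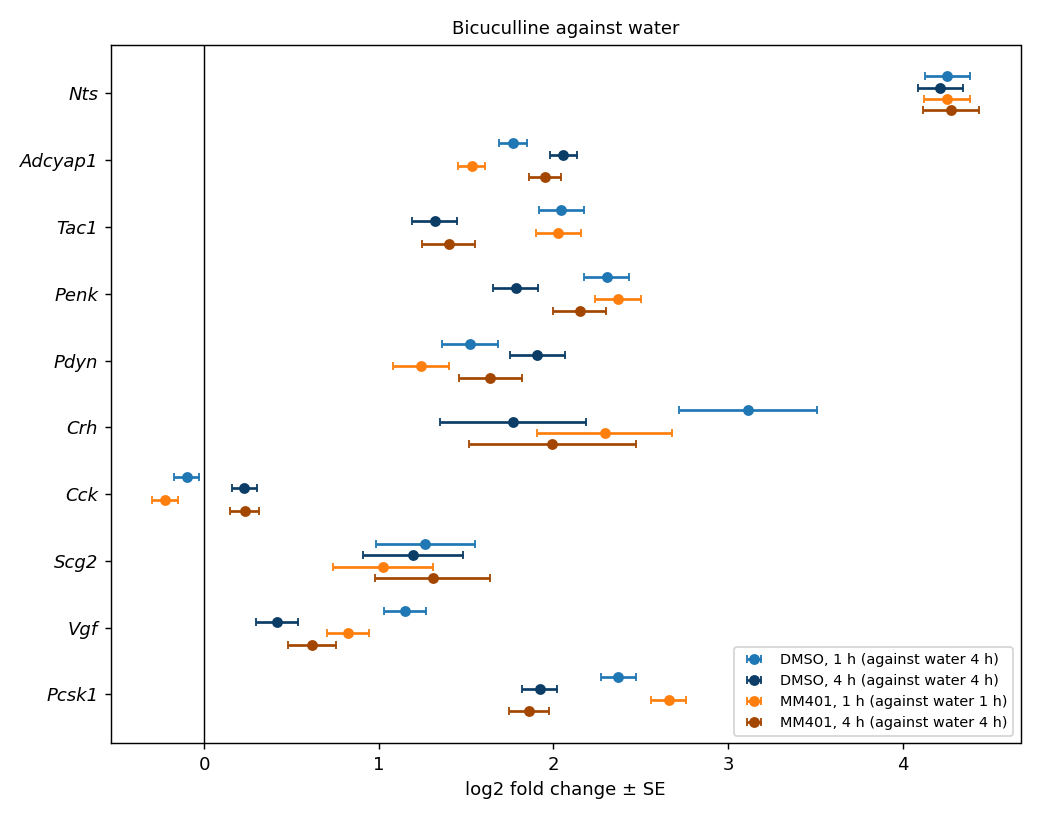
Log2 fold change (horizontal axis) of bicuculline against water for each gene in DMSO and MM401 at 1 h and 4 h, with SE as bars. Nts lies above 4 in all 4 comparisons and Cck within 0.23 of 0.

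The bicuculline libraries of both times were next set against each other, to show whether synthesis was higher early or late. These are the libraries whose responses were known when the genes were chosen, so the values are again a description. In DMSO 5 of the 10 genes were called lower at 4 h than at 1 h and 3 higher, where 15.2% of all genes tested were called lower and 19.1% higher. In MM401 5 were called lower and 3 higher, where the shares were 16.0% and 17.5%. The median of the 10 was -0.26 in DMSO and -0.32 in MM401, against 0.02 for all genes in both. Of all calls, 55.7% in DMSO and 52.3% in MM401 were higher with TMM, and 39.2% and 65.0% with plain totals.

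Of the peptide genes lower at 4 h, Tac1 differed by -0.73 ± 0.12 in DMSO and by -0.78 ± 0.12 in MM401. Penk differed by -0.52 ± 0.12 in DMSO and by -0.48 ± 0.12 in MM401 (-0.40 and not called with plain totals). For Crh the difference was -1.35 ± 0.34 in DMSO and -0.60 ± 0.34 in MM401. With only the groups compared in the fit, Crh was no longer called in DMSO (-1.38) and became called in MM401 (-0.62).

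Among the granule and processing genes, Vgf differed by -0.73 ± 0.12 in DMSO and by -0.34 ± 0.12 in MM401. Without any 1 of 3 libraries (bicuculline 1 h replicates 1 and 3, and 4 h replicate 2) the MM401 difference ran from -0.31 to -0.22 and was not called, nor was it with plain totals (-0.26) or the shallow library (-0.36). Pcsk1 differed by -0.45 ± 0.10 in DMSO and by -0.59 ± 0.10 in MM401. Scg2 stayed within its spread, at -0.07 ± 0.28 and 0.08 ± 0.28 (95% intervals -0.62 to 0.48 and -0.47 to 0.63).

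The genes higher at 4 h were peptide precursors. Adcyap1 differed by 0.29 ± 0.08 in DMSO and by 0.37 ± 0.08 in MM401. Pdyn differed by 0.39 ± 0.14 in DMSO and by 0.54 ± 0.15 in MM401, and Cck by 0.33 ± 0.07 and 0.45 ± 0.07. In DMSO these 3 were no longer called with the shallow library in the fit (0.25, 0.34 and 0.29) or with plain totals (0.20, 0.30 and 0.24). With only the groups compared, Pdyn was no longer called either (0.36). Without bicuculline 1 h replicate 3, Adcyap1 stood at 0.17 and Pdyn at 0.25 in DMSO. Adcyap1 in MM401 was not called with the shallow library (0.34). Nts differed by -0.04 ± 0.10 in DMSO and by -0.30 ± 0.10 in MM401, where it was not called with plain totals (-0.22) or without bicuculline 1 h replicate 2 (-0.24) or 4 h replicate 2 (-0.26). With plain totals 2 of the 5 lower calls in MM401 were left, Tac1 and Pcsk1.

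**Figure D4:**
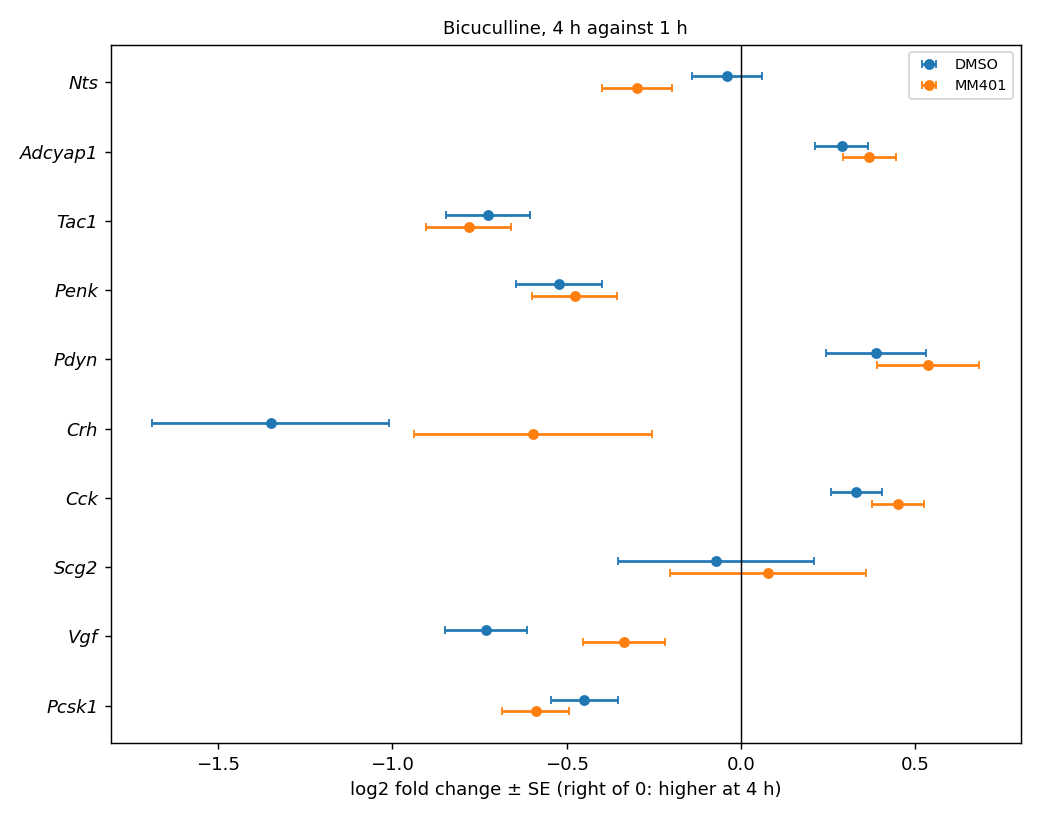
Log2 fold change (horizontal axis) of bicuculline 4 h against 1 h for each gene in DMSO and MM401, with SE as bars; points right of 0 were higher at 4 h. Tac1, Penk, Vgf and Pcsk1 lie left of 0 and Adcyap1, Pdyn and Cck right of 0 in both pretreatments.

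MM401 against DMSO asks whether the MLL1 inhibitor changes these genes. None of the 10 was called by edgeR in water at 4 h, where 0.0826% of all genes tested were called, with bicuculline for 1 h (0.00590%) or with bicuculline for 4 h (0%). DESeq2 also called 0 of the 10 in each. By edgeR 2, 0 and 1 of them had an unadjusted p under 0.05. Over all 16959 genes, DESeq2 called 159, 13 and 7, and 2194, 540 and 1309 had an unadjusted edgeR p under 0.05. The 2 in water were Adcyap1, at 0.26 ± 0.09 (edgeR adjusted p = 0.237), and Penk, at -0.35 ± 0.15 (0.33). The 1 with bicuculline for 4 h was Vgf, at 0.41 ± 0.12 (0.639), whose 3 MM401 libraries (23.8, 17.6 and 22.4 CPM) all lay above its DMSO libraries (16.9, 17.2 and 14.0 CPM). In that comparison Adcyap1, Crh, Cck, Scg2 and Vgf were each higher with MM401 in every same-numbered pair, and the other genes were mixed. The fit did not pair the libraries, and with the replicate number as a block 0 of the 10 were called there. Without DMSO water replicate 1, which had the lowest Penk level of its group, Penk was called in water (-0.51 ± 0.12, edgeR adjusted p = 0.0172), and so were 1272 of all 16958 genes then tested, against 14 with that library.

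In water, 4 h against 1 h in MM401, edgeR called none of the 10 (0.867% of all genes). By edgeR 0 had an unadjusted p under 0.05 (1699 of all 16959 genes), and DESeq2 called 0 (245). The largest change was that of Nts, at -0.32 ± 0.19.

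The difference between the bicuculline response in MM401 and that in DMSO was tested as an interaction. None of the 10 was called by edgeR at 4 h (0% of all genes) or at 1 h (0%, both responses against water at 4 h), none had an unadjusted p under 0.05 (2552 and 1326 of all 16959 genes), and DESeq2 called 0 (19 and 5 of all genes). For Penk the difference at 4 h was 0.37 ± 0.19 (95% interval -0.013 to 0.74), and without DMSO water replicate 1 it was 0.52 ± 0.15 and called (edgeR adjusted p = 0.0369), as were 1551 of all 16958 genes then tested, against 0 with that library. For Nts it was 0.06 ± 0.22 (-0.36 to 0.49) and for Pcsk1 -0.06 ± 0.14 (-0.34 to 0.22). The interval of Crh was the widest, from -1.06 to 1.51. Plain totals moved the median of all genes in this comparison by 0.203 at 4 h, and gave 0.58 for Penk, 0.27 for Nts, 0.13 for Pcsk1, whose sign turned, and 0.10 for Adcyap1, which was -0.10 with TMM; none was called.

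Receptors and binding proteins of the 10 genes' peptides were read from a list of 16, of which 14 were tested. This list and those that follow were chosen with earlier results known, and the genes named from them had the largest called changes, so their bicuculline values too are a description, with no p-value. With bicuculline in DMSO 6 were called higher and 4 lower at 1 h, and 5 higher and 6 lower at 4 h (median 0.18 and 0.14, against -0.04 and -0.02 for all genes). Of all genes tested, 20% were called higher and 24.5% lower at 1 h, and 23.7% and 25.5% at 4 h; at 1 h in MM401 the shares were 18.1% and 21.8%, and at 4 h 23.0% and 21.7%. In MM401 the counts were 6 and 5 at 1 h and 6 and 6 at 4 h. With plain totals the counts in DMSO were 5 and 6 at 1 h and 3 and 6 at 4 h, with medians of -0.02 and -0.14, against -0.23 and -0.30 for all genes. Over all 16959 genes, 1836 of 8654 calls at 1 h and 1820 of 9687 at 4 h were then higher.

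Tacr1, the receptor of substance P, was higher by 1.23 ± 0.09 at 1 h in DMSO (18.0 ± 1.53 CPM in water and 42.2 ± 4.44 CPM with bicuculline, SD, n = 3) and by 0.71 ± 0.09 at 4 h, and in MM401, with water of the same time, by 0.89 and 0.38. Tacr3, which prefers neurokinin B, went from 4.21 ± 0.72 CPM in water to 19.4 ± 2.01 CPM at 4 h, a log2 change of 2.21 ± 0.14, and changed by 0.59 ± 0.14 at 1 h; in MM401 the values were 1.23 at 1 h and 1.91 at 4 h. Ntsr1, the high-affinity neurotensin receptor, went from 7.83 ± 0.98 to 2.52 ± 0.45 CPM at 4 h in DMSO, a change of -1.62 ± 0.13, and stood at -0.27 ± 0.12 at 1 h against water at 4 h. In MM401, against water of the same time, Ntsr1 changed by -1.07 ± 0.12 already at 1 h and by -2.15 ± 0.14 at 4 h. Nts itself was higher in the same libraries.

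Of the opioid receptors, Oprd1, the delta receptor that binds enkephalins, changed by -0.65 ± 0.11 at 1 h and -1.87 ± 0.12 at 4 h, where its level was 1.71 ± 0.12 CPM against 6.24 ± 0.25 in water. Oprm1, the mu receptor, was higher by 0.59 ± 0.07 at 1 h and stood at 0.11 ± 0.07 at 4 h in DMSO, and at 0.42 and -0.26 in MM401; it overlaps Ipcef1 on the other strand, so its reads are uncertain. Of the CRH receptors, Crhr1 changed by -0.99 ± 0.11 at 1 h and -1.26 ± 0.11 at 4 h, and Crhr2 by 0.60 ± 0.15 at 1 h and 1.11 ± 0.14 at 4 h (0.09 and 0.75 in MM401). Of the receptors that PACAP shares with VIP, Vipr1 changed by -0.69 ± 0.10 and Vipr2 by 0.67 ± 0.10 at 1 h, and at 4 h the values were -0.73 ± 0.10 and 0.19 ± 0.10. In MM401 Vipr2 stood at 0.60 and 0.44.

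**Figure D5:**
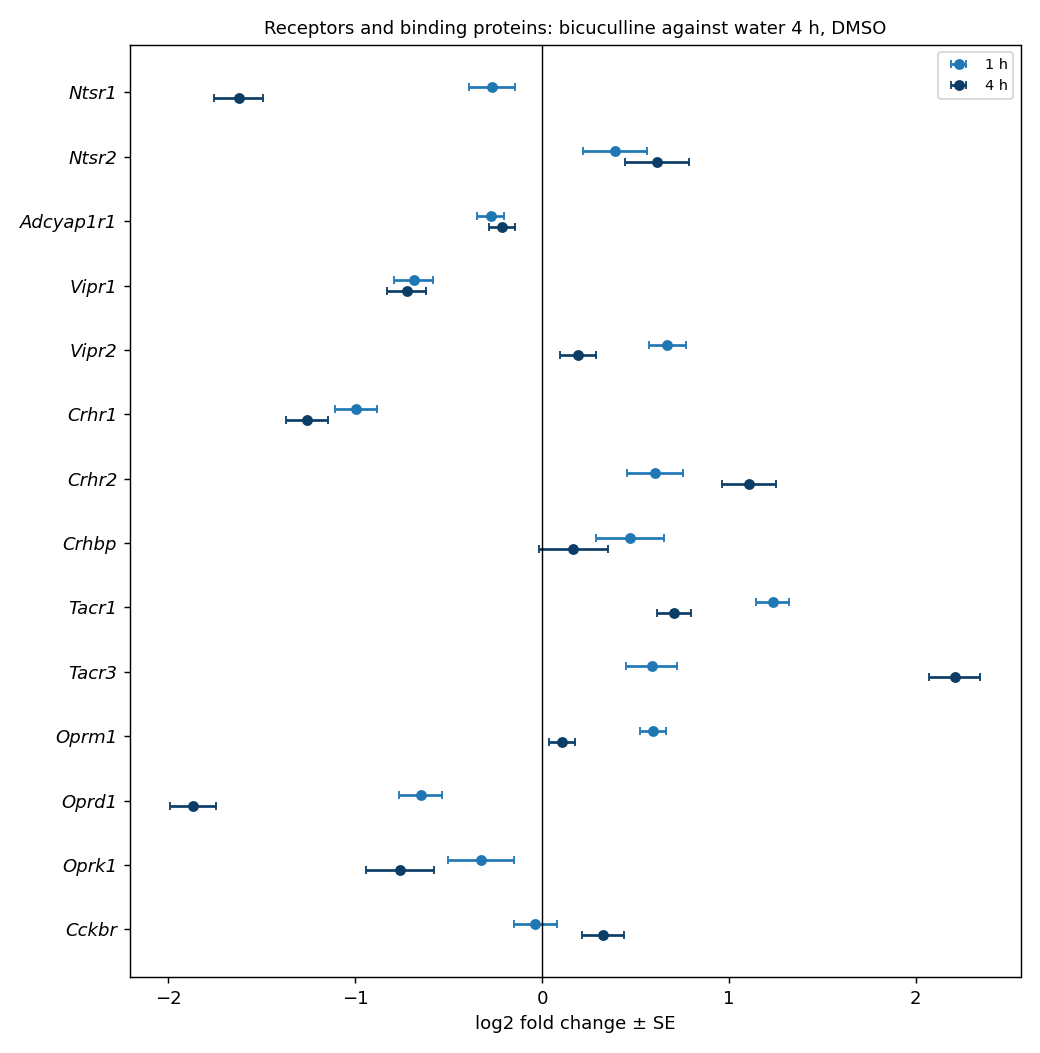
Log2 fold change (horizontal axis) of bicuculline for 1 h and 4 h against water for 4 h in DMSO for the 14 receptor and binding protein genes tested, with SE as bars. Tacr3 reaches 2.21 and Oprd1 -1.87 at 4 h.

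Among 25 other genes of granules and prohormone processing, all tested, 10 were called higher and 0 lower at 1 h in DMSO, and 9 higher and 6 lower at 4 h (median 0.17 and 0.08), against 20% and 24.5% of all genes at 1 h and 23.7% and 25.5% at 4 h. In MM401 the counts were 9 and 2 at 1 h and 9 and 8 at 4 h. With plain totals they were 6 and 7 in DMSO at 1 h and 6 and 13 at 4 h. Of all 16959 genes, plain totals called 8654 at 1 h, 1836 of them higher, and 9687 at 4 h, 1820 of them higher. The medians of the list were then -0.02 and -0.20, against -0.23 and -0.30 for all genes. The balance of calls in this list so moved with the scaling, as did that of all genes. Syt4, a granule synaptotagmin, was higher by 1.64 ± 0.11 at 1 h and 1.74 ± 0.11 at 4 h. Pam, the enzyme that amidates peptides such as substance P and CCK, was higher by 1.02 ± 0.11 and 1.25 ± 0.11; it overlaps B230216N24Rik. Ptprn, a granule membrane protein, was higher by 0.81 ± 0.16 and 1.14 ± 0.16. Cadps2, which primes granules for release and overlaps Rnf133 and Rnf148, fell by 0.73 at 4 h (SE 0.12), Eipr1, a factor of granule formation, by 0.49 (SE 0.06) and the sorting receptor Sorl1 by 0.42 (SE 0.09). At 1 h the values of these 3 were 0.25, -0.01 and 0.23 in DMSO against water at 4 h, where Sorl1 was called, and 0.0032, -0.26 and 0.16 in MM401 against water at 1 h, where Eipr1 was called.

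Of 46 other peptide and secreted factor precursors, 29 were tested; 13 were called higher and 1 lower at 1 h in DMSO, and 11 higher and 1 lower at 4 h (median 0.50 and 0.14), against 20% and 24.5% of all genes at 1 h and 23.7% and 25.5% at 4 h. In MM401 the counts were 17 and 2 at 1 h and 12 and 2 at 4 h. With plain totals those in DMSO were 11 and 5 at 1 h and 10 and 7 at 4 h, with medians of 0.30 and -0.14. The medians of all genes were then -0.23 and -0.30, and 1836 of 8654 calls at 1 h and 1820 of 9687 at 4 h were higher. The sign of the list's median at 4 h rests on the scaling, while this median lay above that of all genes with both scalings. Nppc, the C-type natriuretic peptide gene, was higher by 2.13 ± 0.16 at 1 h and 2.02 ± 0.16 at 4 h. Pnoc, the nociceptin precursor, was higher by 0.99 ± 0.11 at 1 h and 1.14 ± 0.11 at 4 h, and Prok2 (prokineticin 2) by 0.83 ± 0.13 and 1.39 ± 0.13, while Nucb2 (nesfatin-1) changed by -0.45 ± 0.08 at 1 h and stood at -0.14 ± 0.08 at 4 h. Bdnf, a neurotrophin whose response in these libraries was known beforehand, changed by 2.18 ± 0.10 and 2.66 ± 0.11. No gene of the 3 lists was called by edgeR for MM401 against DMSO or for an interaction.

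The genes whose log2 CPM ran most like each member over the 20 libraries are given as a description; the points share libraries and groups. Nts was most like Ifrd1 (r = 0.997), Atf3 (0.994) and Slc16a1 (0.991), and Adcyap1 most like Bdnf (0.994), Plod2 (0.991) and Klf5 (0.990). Penk was most like Gpr19 (0.993), Atf3 (0.987) and Plk2 (0.987), and Tac1 most like Mest (0.989), Nr4a1 (0.989) and Nr4a3 (0.988). Pcsk1 was most like Zfand5, Ddx3y and Zdbf2 (0.993 each). Pdyn was most like Fam160a1 (0.974), Eif2ak3 (0.974) and Adcyap1 (0.973), and so had another member among its nearest genes. Scg2 was most like Scg3 (0.954), another granin that is in the granule list, Calu (0.950) and Uaca (0.940). Crh (Rgs13 0.958, Cdc42ep3 0.939, Dusp1 0.935), Vgf (Shc4 0.935, Bmp2 0.933, Ces1d 0.927) and Cck (Ulk1 0.910, Ehd3 0.908, Elmo2 0.895) had less close neighbours.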

How the data were processed

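The authors deposited raw read counts per gene, 1 column per library, in the layout of featureCounts which covers each gene's whole span and thus its introns (per the file headers). Bowtie2, featureCounts, UMI-tools, DESeq2, deepTools and mm10 are named in the submitters' processing notes without versions or roles; use of strand, treatment of multiply placed reads and the annotation release are not given in the sources used here.

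Counts were fitted in R 4.3.3 with edgeR 4.0.16 (robust quasi-likelihood, TMM) and limma 3.58.1, over 20 libraries and all 7 groups, after filterByExpr (minimum count 10, minimum total 15), which kept 16959 genes. Adjusted p-values are Benjamini-Hochberg over these genes, two-sided; SE is the size of the log2 change over the square root of F. CPM are relative to the TMM-scaled total. Alternatives were DESeq2 1.42.0 without independent filtering, plain library totals, no filter, the shallow library included, only the groups compared, the replicate number as a block, and each library left out in turn.

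The members, the lists and the rule for other named genes were chosen with earlier results of these data known. That rule took from each list up to 3 genes per direction and DMSO bicuculline comparison with the largest called change, a mean of 2 CPM or more on the higher side and separate libraries; likeness names the 3 highest Pearson correlations of log2 CPM (prior count 2), leaving out predicted and small RNA genes. Replicates of a group differed beyond sampling noise (chi-square per degree of freedom 6.14 to 78.5 over 19 pairs, the 2 highest with DMSO water replicate 1). Same-numbered libraries deviated together in 24 of 45 pairs (correlation of deviations over 0.1; median 0.102). All 3 pairs passed 0.1 for bicuculline 4 h in DMSO and MM401 (lowest 0.107), which are compared directly. The same held for DMSO water 4 h with MM401 bicuculline 4 h (0.101) and with MM401 water 1 h (0.114). The main fit did not pair the libraries, and the replicate number entered only as a block in an alternative fit. Nothing says that replicates came from separate animals, so p-values measure the spread between these samples.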

Additional observations from a re-analysis of the deposited data

Results flagged for a closer look

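In DMSO both bicuculline times have the same water libraries as control, so 4 h minus 1 h is the difference between the 2 responses, and 8 of the 10 genes were called for it by edgeR, 3 higher and 5 lower, where 19.1% of all genes tested were called higher and 15.2% lower. The genes were chosen with these responses known, so the values are a description and not independent evidence of a difference. The response at 4 h was lower by the following log2 differences: -1.35 for Crh, -0.73 for Tac1, -0.73 for Vgf, -0.52 for Penk and -0.45 for Pcsk1. It was higher by 0.39 for Pdyn, 0.33 for Cck and 0.29 for Adcyap1. With plain library totals or with the shallow library 0 of these 3 were called higher and 5 of the 10 genes were called in all, and without DMSO bicuculline 1 h replicate 3 only 1 of the 3 was. Without DMSO bicuculline 1 h replicate 2, 4 h replicate 1 or 4 h replicate 2, 2 genes were called higher and 7 in all.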

How the results depend on the processing

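Over 63 values of single genes, 744 alternative values were computed: 693 kept direction and call, 41 kept direction and lost the call, 3 kept direction and gained it, and 7 reversed. For bicuculline 4 h against 1 h, the count of 8 called genes in DMSO was 5 with the shallow library and 5 with plain library totals, and that of 8 in MM401 was 5 with plain totals. Plain totals turned Cck at 4 h against water in DMSO to -0.0500, and raised the largest difference between the MM401 and DMSO responses at 4 h to 0.58 (Penk). When 1 library was left out, the change from 1 h to 4 h ran from -0.13 to 0.0404 for Nts in DMSO, from -0.20 to 0.16 for Scg2 in DMSO and from -0.10 to 0.27 for Scg2 in MM401. The count of called genes ran from 0 to 1 for MM401 against DMSO in water and from 0 to 1 for the interaction at 4 h, Penk being the gene, without DMSO water replicate 1; over all genes the calls then went from 14 to 1272 and from 0 to 1551. Where that left 1 library in a group, its spread was taken from the other groups. The cause of these shifts was not tested. The replicate number as a block changed no count of called members (9, 10, 10, 10, 8 and 8 in the bicuculline comparisons and 0 in the others); it narrowed Scg2 at 1 h in DMSO to 1.30 ± 0.16. Of 45 correlations of deviations between same-numbered libraries, 24 passed 0.1. The choice to run plain totals on the related lists was made after seeing the data. Crh had the widest standard errors of the 10 and 0.191 to 0.688 CPM in water; what sets its spread was not tested.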
